A study of Mus musculus with 5 samples.

Results

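The HoxA cluster on mouse chromosome 6 was examined for RING1B, a ubiquitin ligase of Polycomb Repressive Complex 1 (PRC1), in mouse embryonic fibroblasts (MEFs). The 10 genes were chosen by name, from Hoxa2 to Hoxa13, out of 37252 genes annotated on the autosomes and the X chromosome. A gene was counted as having a peak when a RING1B peak overlapped its body or lay within 5000 bases of its start. Measurements came from chromatin immunoprecipitation and sequencing after crosslinking and micrococcal nuclease digestion. The 3 groups compared were parental MEFs with floxed EED alleles (control), MEFs transduced with lentivirus for stable expression of human EZHIP, and MEFs transduced for stable expression of H3.3 K27M. Each of them was profiled with 1 library, so no value has a replicate error and no test was possible. An H3.3 K27R line and an EED deletion line, the latter grown from a selected clone, complete the 5 samples of the series and were not analysed here. By the study's account both transduced lines were derived from the parental MEFs, so all 3 groups carry the floxed EED alleles. The peak lists hold positions but no expression values, so fibroblast identity could not be checked with marker genes, and the sequencing depth behind each list is unknown.

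Hox genes encode homeodomain transcription factors that specify position along the body axis, and their order on the chromosome follows the order of their expression domains. Low-numbered genes such as Hoxa2 act in the hindbrain and neck, whereas the high-numbered Hoxa9 to Hoxa13 act in the posterior trunk and the distal limb. In cells where they are silent, Hox genes are classical Polycomb targets. PRC2 methylates histone H3 at lysine 27, and PRC1 is recruited in part through that mark. EZHIP, a protein of posterior fossa ependymomas, and H3.3 K27M, a mutant histone of midline gliomas, both inhibit PRC2. The question was where RING1B coverage begins and ends along the cluster in each list.

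The control list covered the cluster from Hoxa5 to beyond Hoxa13, the EZHIP list from Hoxa9 to beyond Hoxa13, and the H3.3 K27M list only the stretch from just upstream of Hoxa11 to beyond Hoxa13. In every list the covered part of the cluster came from 1 peak. The control peak lay at chr6:52152801-52224199 (mm9) and spanned 71399 bases. The EZHIP peak lay at chr6:52176401-52218399 and spanned 41999 bases. The H3.3 K27M peak lay at chr6:52196601-52218599 and spanned 21999 bases. By width it ranked 2nd of 821 control peaks, 3rd of 311 EZHIP peaks and 15th of 286 H3.3 K27M peaks. The study itself reports RING1B and CBX2 as unchanged in number and general distribution with EZHIP or H3.3 K27M, whereas the lists used here differ in peak number. Since the calls of neighbouring genes come from the same peak, the genes are not independent of each other.

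**Figure D1:**
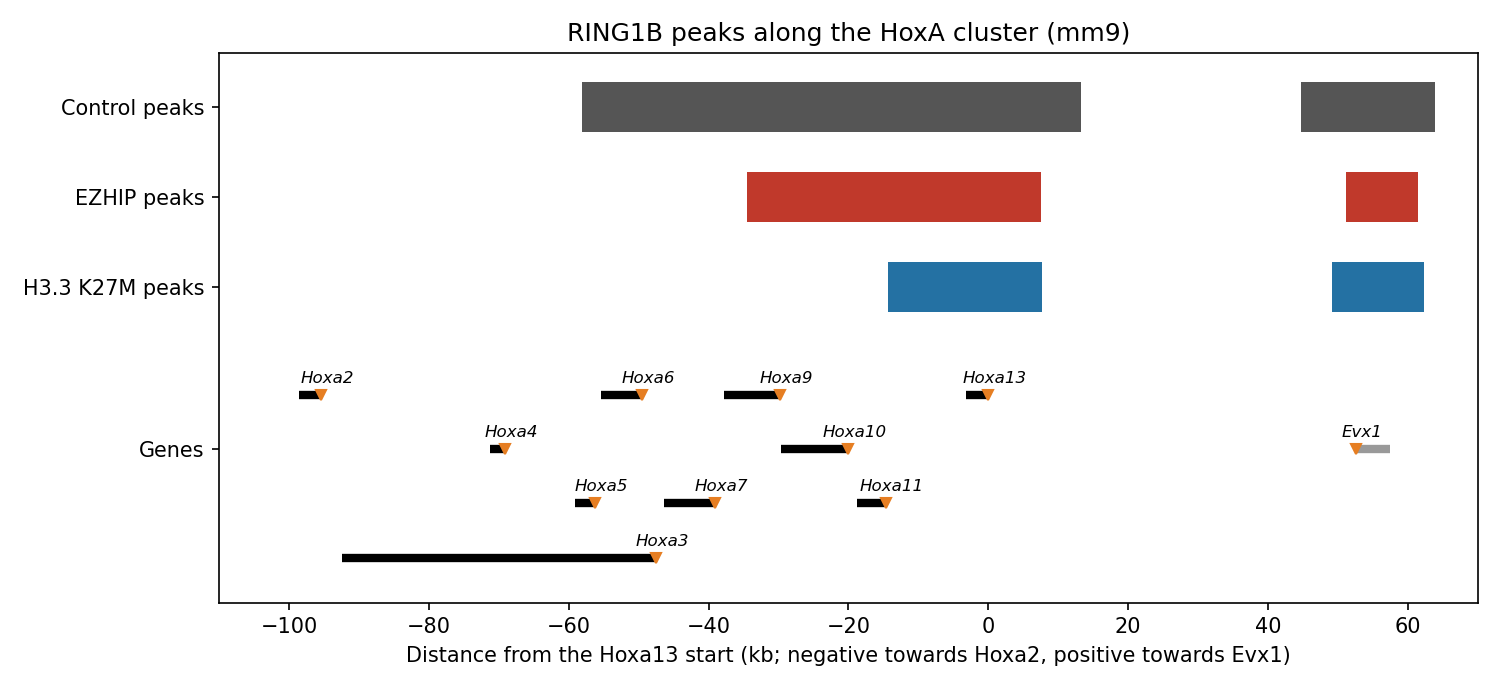
RING1B peaks of the 3 lists (bars, control at the top) and gene bodies (lines, with triangles at gene starts) against the distance from the Hoxa13 start in kb. The peaks end close together beyond Hoxa13, and their other ends lie near Hoxa5 in the control, at Hoxa9 in the EZHIP and next to Hoxa11 in the H3.3 K27M list. The grey line is the neighbour Evx1.

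The ends of the peak on the side of Evx1 lay closer together than those on the side of Hoxa2. Towards Evx1, the EZHIP peak ended 5800 bases and the H3.3 K27M peak 5600 bases before the end of the control peak. These 2 ends differed by 200 bases, the size of 1 bin of the peak caller. On the side of Hoxa2, the EZHIP peak began 23600 bases and the H3.3 K27M peak 43800 bases inside the control peak. Of the 29400 control bases outside the EZHIP peak, 80.3% lay on the side of Hoxa2, and of the 49400 outside the H3.3 K27M peak, 88.7% did. The study states a maximum gap of 10000 for joining called sequence, and if it was used for these lists, a peak may span uncalled bins. The shifts on the side of Hoxa2 were larger than that gap and those on the side of Evx1 smaller, and several gaps can be joined in a row. The part of such joining in the shifts was not tested. The lists may also have been called with different settings, since 0 of 821 control peaks were narrower than 1000 bases, against 109 of 311 EZHIP peaks and 59 of 286 H3.3 K27M peaks. The part of this in the differences between lists was not tested.

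The ends on the side of Hoxa2 fell in or next to genes of the cluster, whose bodies fill most of the sequence there. The control peak began in the last exon of Hoxa5, 218 bases inside its coding sequence and 1785 bases from its start. The EZHIP peak began in the first exon of the Hoxa9-001 transcript, between its start, 968 bases away and covered, and the Hoxa9 start codon, 298 bases away and not covered. The H3.3 K27M peak began 388 bases upstream of the Hoxa11 start, in an exon of the antisense gene Hoxa11as, so that the Hoxa11 start and body were not covered. All ends on the side of Evx1 were intergenic and lay 7525 bases (EZHIP), 7725 bases (H3.3 K27M) and 13325 bases (control) upstream of the Hoxa13 start.

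A few stretches upstream of gene starts show what lay inside each list: Hoxa4 in no peak, Hoxa5 in the control peak alone, Hoxa10 and Hoxa11 in the control and EZHIP peaks, and Hoxa13 in all 3. Each is the 250 bases before the annotated start, 5′ to 3′ on the minus strand, read from NCBIM37 (equivalent to mm9). Capitals mark CpG dinucleotides, the sites at which unmethylated DNA is bound by CXXC proteins of one form of PRC1.
Hoxa4, chr6:52141753-52142002: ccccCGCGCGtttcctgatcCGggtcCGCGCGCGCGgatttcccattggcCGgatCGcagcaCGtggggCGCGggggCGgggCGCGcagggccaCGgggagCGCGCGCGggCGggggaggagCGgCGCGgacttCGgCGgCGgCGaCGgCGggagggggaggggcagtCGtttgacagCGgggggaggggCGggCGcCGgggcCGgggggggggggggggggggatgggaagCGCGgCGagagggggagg
Hoxa5, chr6:52154587-52154836: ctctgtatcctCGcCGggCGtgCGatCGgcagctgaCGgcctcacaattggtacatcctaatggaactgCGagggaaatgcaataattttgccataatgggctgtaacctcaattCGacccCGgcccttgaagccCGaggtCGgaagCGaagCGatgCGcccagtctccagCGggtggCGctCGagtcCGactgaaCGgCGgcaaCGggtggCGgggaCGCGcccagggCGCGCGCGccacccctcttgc
Hoxa10, chr6:52190854-52191103: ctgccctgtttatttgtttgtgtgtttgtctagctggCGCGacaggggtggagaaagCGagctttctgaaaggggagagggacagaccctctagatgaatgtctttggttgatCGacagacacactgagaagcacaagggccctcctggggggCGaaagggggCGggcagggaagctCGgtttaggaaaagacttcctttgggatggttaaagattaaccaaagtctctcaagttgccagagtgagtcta
Hoxa11, chr6:52196214-52196463: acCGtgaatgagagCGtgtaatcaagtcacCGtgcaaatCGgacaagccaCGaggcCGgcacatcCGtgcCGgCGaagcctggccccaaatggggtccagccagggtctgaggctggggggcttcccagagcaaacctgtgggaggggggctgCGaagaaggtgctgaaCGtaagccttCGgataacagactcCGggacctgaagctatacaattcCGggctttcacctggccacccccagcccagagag
Hoxa13, chr6:52210875-52211124: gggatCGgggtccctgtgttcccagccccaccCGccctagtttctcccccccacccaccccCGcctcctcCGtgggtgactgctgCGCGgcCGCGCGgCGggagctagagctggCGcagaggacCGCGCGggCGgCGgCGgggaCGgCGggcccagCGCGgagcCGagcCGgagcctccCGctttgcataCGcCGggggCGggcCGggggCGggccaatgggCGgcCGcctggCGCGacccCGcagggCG
These stretches hold 41 CpG at Hoxa4, 28 at Hoxa5, 7 at Hoxa10, 14 at Hoxa11 and 35 at Hoxa13. The most CpG-rich of them thus lay outside every peak and the next inside all 3.

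In the control list, 8 of the 10 genes had a peak, against 3.16% of all genes. In the EZHIP list 5 genes had a peak, against 1.12% of all genes, and in the H3.3 K27M list 2 genes, against 1.09%. The gene start itself lay inside the peak for 8 genes in the control (2.27% of all genes), 4 in the EZHIP (0.518%) and 1 in the H3.3 K27M list (0.65%). A control peak without an EZHIP peak was found at 3 of the 10 genes, against 2.22% of all genes. A control peak without an H3.3 K27M peak was found at 6 of the 10, against 2.18% of all genes. Over the whole annotation, 1176 genes had a control peak, of which 70.3% had no EZHIP peak and 69.0% no H3.3 K27M peak. Set beside these shares, 3 of 8 is below the first and 6 of 8 near the second, but members of 1 cluster rest on 1 peak per list and the shares carry no error.

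Hoxa2 and Hoxa4 had no peak in any list. Hoxa2 (ENSMUSG00000014704.8), which patterns the second branchial arch, starts at chr6:52115412, 37389 bases from the control peak, 60989 bases from the EZHIP peak and 81189 bases from the H3.3 K27M peak. Hoxa4 (ENSMUSG00000000942.9), a gene of cervical identity, starts at chr6:52141752, 11049 bases from the control peak, 34649 bases from the EZHIP peak and 54849 bases from the H3.3 K27M peak.

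Hoxa3 (ENSMUSG00000079560.5), which acts in thymus and parathyroid development, has an annotated start far from its coding sequence. That start, at chr6:52163335 between Hoxa6 and Hoxa7, lay inside the control peak, and 23.5% of its 44827-base body was covered. In the gene model used, the coding sequence sits at the other end of that body, 30153 bases outside the control peak. Of its 5 annotated transcripts, 2 start inside the control peak. A second gene model of the same name, from chr6:52113358 to 52163338, gave the same calls by the rule, but it annotates coding sequence up to 52163335, inside the control peak. The distance of the coding sequence from the peak thus depends on the model chosen. Neither the EZHIP nor the H3.3 K27M peak touched Hoxa3, whose start was 13066 bases and 33266 bases from them.

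Hoxa5, Hoxa6 and Hoxa7 had their bodies and starts covered in the control list alone. Hoxa5 (ENSMUSG00000038253.6), known for roles in lung and axial skeleton development, had 63.0% of its body and 67.9% of the window of 5000 bases on both sides of its start covered in the control. No base of either was covered in the other lists, and the start lay 21815 bases from the EZHIP and 42015 bases from the H3.3 K27M peak. Hoxa6 (ENSMUSG00000043219.7), a trunk gene, was covered over 100% of body and window in the control, and its start lay 15046 bases from the EZHIP and 35246 bases from the H3.3 K27M peak. Hoxa7 (ENSMUSG00000038236.6), also a trunk gene, was covered over 100% of body and window in the control. Its EZHIP call rests on an overlap of 453 bases with the window, 4.53% of it, with no base of the body covered and the start 4548 bases from the peak. From the H3.3 K27M peak the Hoxa7 start was 24748 bases away.

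Hoxa9 and Hoxa10 were covered in the control and the EZHIP list but had no H3.3 K27M peak. Hoxa9 (ENSMUSG00000038227.7), a factor in blood cell progenitors and a known leukaemia gene, was covered over 100% of its body in the control and 58.7% in the EZHIP list. The uncovered rest of Hoxa9 includes its coding sequence. Of its 4 transcripts, 4 start inside the control peak, 3 inside the EZHIP peak and 0 inside the H3.3 K27M peak, which lay 15513 bases from the Hoxa9 start. Hoxa10 (ENSMUSG00000000938.9), which acts in the development of the uterus, was covered over 100% of body and window in both lists. The start of Hoxa10 lay 5748 bases from the H3.3 K27M peak, just beyond the limit of 5000 bases, and with peaks lengthened by 1000 bases at both ends it would be counted.

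Hoxa11 and Hoxa13 were the genes with a call in all 3 lists. Hoxa11 (ENSMUSG00000038210.9), which patterns the forearm, was covered over 100% of body and window in the lists of control and EZHIP cells. With H3.3 K27M none of its body was covered, and 46.1% of the window lay inside the peak, all of it upstream of the start. Hoxa13 (ENSMUSG00000038203.11), the gene of the hand and foot and of the urogenital tract, was covered over 100% of body and window in all 3 lists. Hoxa13 was the only member with its start inside the H3.3 K27M peak, and all 6 of its annotated transcripts start there.

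**Figure D2:**
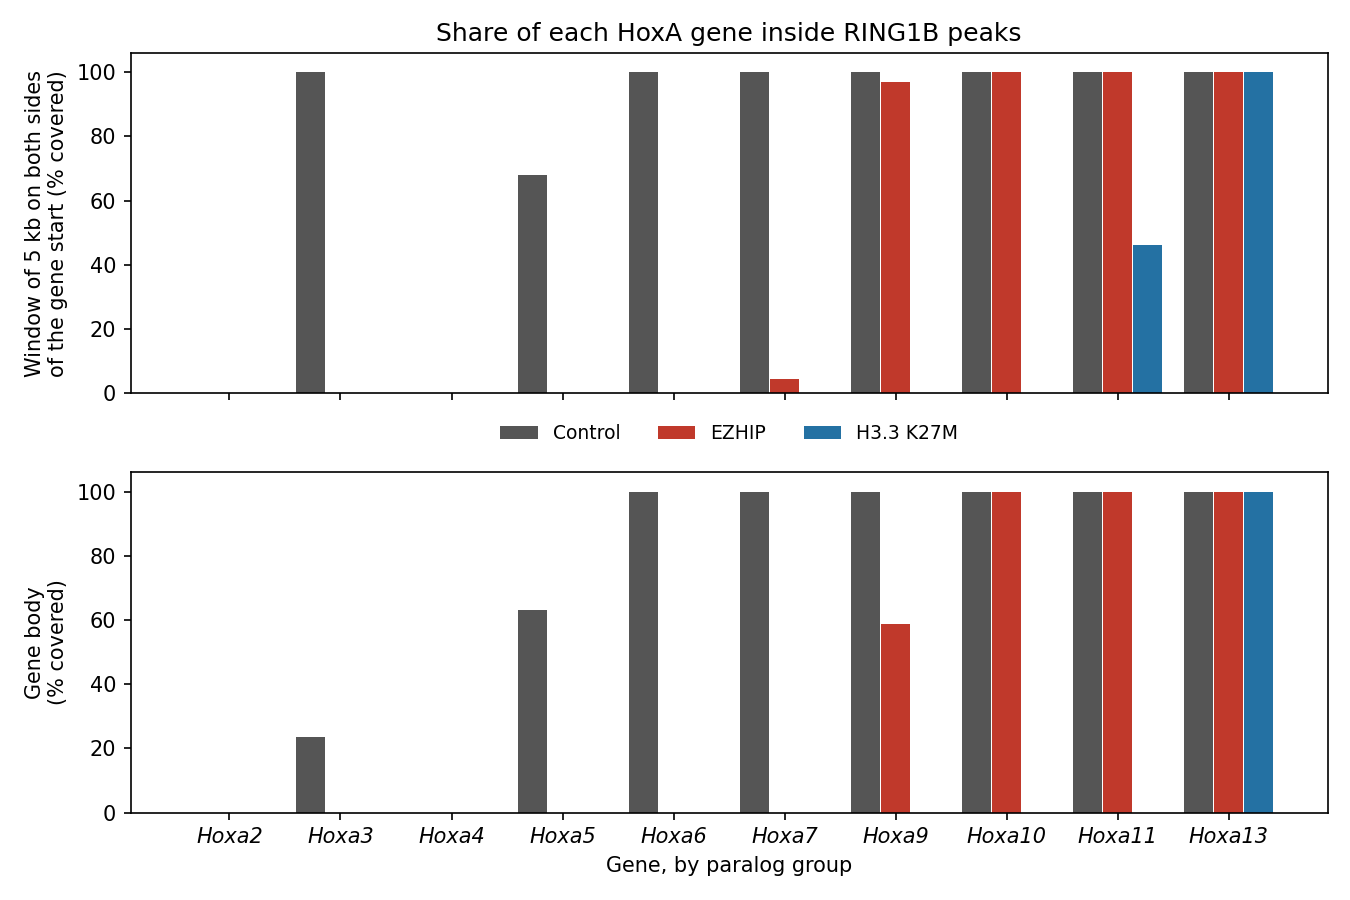
Percentage of the window of 5000 bases on both sides of the start (top) and of the gene body (bottom) inside RING1B peaks, for each HoxA gene in the control, EZHIP and H3.3 K27M lists, 1 library each. Hoxa13 is at 100% in all lists, Hoxa10 and Hoxa11 at 100% in the control and EZHIP lists, and Hoxa2 and Hoxa4 at 0% throughout.

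Noncoding genes of the cluster followed their position. Gm15053, listed in RefSeq as Hottip, a noncoding RNA gene upstream of Hoxa13, was covered over 100% in all 3 lists. Hoxa11as was covered over 100% in the control and EZHIP lists and over 59.1% in the H3.3 K27M list, its start being 2209 bases outside that peak. Mir196b, the gene of a microRNA with targets among Hox transcripts, lay inside the control and EZHIP peaks and 16437 bases from the H3.3 K27M peak. Evx1, the homeobox gene next to Hoxa13, had a separate peak in every list, 19199 bases wide in the control, 10399 with EZHIP and 13199 with H3.3 K27M. Between the HoxA peak and the Evx1 peak, 31401 bases were uncovered in the control, 43601 with EZHIP and 41401 with H3.3 K27M. On the other side, the next peak was over 1.01 Mb away in each list. The outer neighbours Skap2 and Hibadh had no peak.

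The covered length was next measured over the interval of the 10 gene bodies with 5000 bases on both sides, chr6:52107350-52215874. Control peaks covered 63074 of its 108525 bases (58.1%). EZHIP peaks covered 39474 of them (36.4%) and H3.3 K27M peaks 19274 (17.8%). The ratio to the control was 0.626 with EZHIP and 0.306 with H3.3 K27M. For whole peaks, which also reach beyond the interval, the ratios were 0.588 and 0.308. Across the 152 regions with a peak in all 3 lists, the median ratio was 0.38 for EZHIP, with quartiles of 0.149 and 0.64, and 0.626 for H3.3 K27M, with quartiles of 0.424 and 0.774. HoxA thus stood above the median for EZHIP, with 105 regions below it, and under the lower quartile for H3.3 K27M, with 24 regions below it. It was among the 34 regions in which the H3.3 K27M peaks covered fewer bases than the EZHIP peaks. Among the 108 regions with at least 10000 covered bases in the control, 9 had a lower H3.3 K27M ratio than HoxA.

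The other Hox clusters gave other ratios over intervals defined in the same way. For H3.3 K27M the ratio to the control was 0.306 at HoxA, 0.415 at HoxB, 0.713 at HoxC and 0.771 at HoxD. For EZHIP it was 0.626 at HoxA, 0.51 at HoxB, 0.705 at HoxC and 0.715 at HoxD. The outermost covered base on the side of the lowest-numbered genes was compared next. In the EZHIP list it lay inside the control position by 23600 bases at HoxA, 51200 at HoxB, 21000 at HoxC and 21600 at HoxD. In the H3.3 K27M list it did so by 43800 bases at HoxA, 62200 at HoxB, 52000 at HoxC and 19400 at HoxD. The shift at HoxA was therefore not the largest of the 4 clusters in either list. Some of these positions rest on small peaks. At HoxC the EZHIP position is the end of a separate peak of 399 bases, without which the shift would be larger. The control positions are ends of separate peaks of 1999 bases at HoxC and 1199 bases at HoxD. HoxA had 1 peak in the control, whereas each of the other clusters had 3, so that whole peaks could be missing there. The peak over the Hoxa13 start was shorter than in the control by 43800 bases towards the lower-numbered genes in the H3.3 K27M list. The corresponding values were 2400 bases for the peak over Hoxb13, 15400 bases for Hoxc13 and 5800 bases for Hoxd13. In the EZHIP list they were 23600 bases at Hoxa13, 1600 at Hoxb13, 16600 at Hoxc13 and 8000 at Hoxd13. Hoxb13 starts 77141 bases from Hoxb9 and its peak did not reach Hoxb9 in any list, so its values do not describe the rest of HoxB. With 1 library per line, differences between clusters could not be tested.

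**Figure D3:**
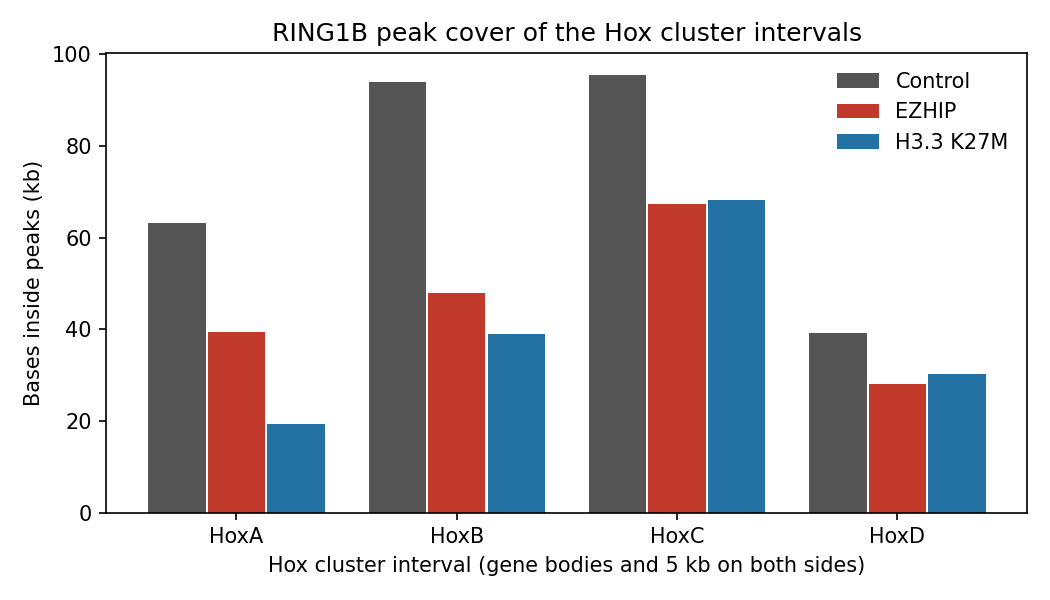
Bases inside RING1B peaks, in kb, over the interval of each Hox cluster (gene bodies and 5000 bases on both sides), for 1 library per line. HoxA goes from 63.1 kb in the control to 39.5 kb in the EZHIP and 19.3 kb in the H3.3 K27M list, and at HoxC and HoxD the bars of both transduced lines are of similar height.

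By paralog group, the HoxA genes with a peak were those of the higher groups in both transduced lines. Of the 4 members in groups 1 to 5, 2 had a control peak and 0 a peak in the EZHIP or H3.3 K27M list. Of the 2 members in groups 6 to 8, 2 had a control peak, 1 an EZHIP peak and 0 an H3.3 K27M peak. Of the 4 members in groups 9 to 13, 4 had a control peak, 4 an EZHIP peak and 2 an H3.3 K27M peak. Among the 28 genes of the HoxB, HoxC and HoxD clusters, 12 belong to groups 9 to 13, of which 12 were called in the control, 11 with EZHIP and 12 with H3.3 K27M. Groups 1 to 5 hold 10 of them, called in 6, 2 and 0 cases in the same order, and groups 6 to 8 hold 6, called in 6, 2 and 0 cases. The 2 EZHIP calls in groups 1 to 5, Hoxc4 and Hoxc5, rest on the same peak of 399 bases. It covers 3.99% of each window and neither gene start. Hoxa9 and Hoxa10, which lacked an H3.3 K27M peak, thus differ from Hoxb9, Hoxc9, Hoxc10, Hoxd9 and Hoxd10, each of which had one by the same rule, at Hoxd9 through 8.63% of its window alone. Of the 9 Pbx, Meis and Pknox genes, which belong to the TALE class and encode Hox cofactors, 0 had a peak in any list. With 3.16%, 1.12% and 1.09% of all genes called in the control, EZHIP and H3.3 K27M lists, a count of 0 among 9 is near the background.

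The sequence of the cluster was compared between the stretches that the lists cover. The 45451 bases outside all peaks, from Hoxa2 to the control edge, held 2.45 CpG per 100 bases. The 23600 bases covered in the control alone, with the starts of Hoxa3, Hoxa5, Hoxa6 and Hoxa7, held 3.7 CpG per 100 bases. The other stretch covered in the control alone, 5600 bases on the side of Evx1 with no member start, held 1.48. The 20200 bases covered in the control and EZHIP lists, with the starts of Hoxa9, Hoxa10 and Hoxa11, held 3.42. The 21799 bases covered in all 3 lists, with the start of Hoxa13, held 2.75. CpG density along the stretches did not follow the number of lists that covered them. CpG-island-like sequence, defined by base composition, made up 17.4% of the uncovered stretch, 35.0% and 0.0% of these 2 control stretches, 28.7% of the control and EZHIP stretch and 16.7% of the stretch covered in all 3. In bins of 200 bases, the median CpG count per 100 bases was 1.5 in uncovered bins, 2.5 in bins covered in the control alone, 2.5 in those covered in the control and EZHIP lists and 1.5 in those covered in all 3.

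**Figure D4:**
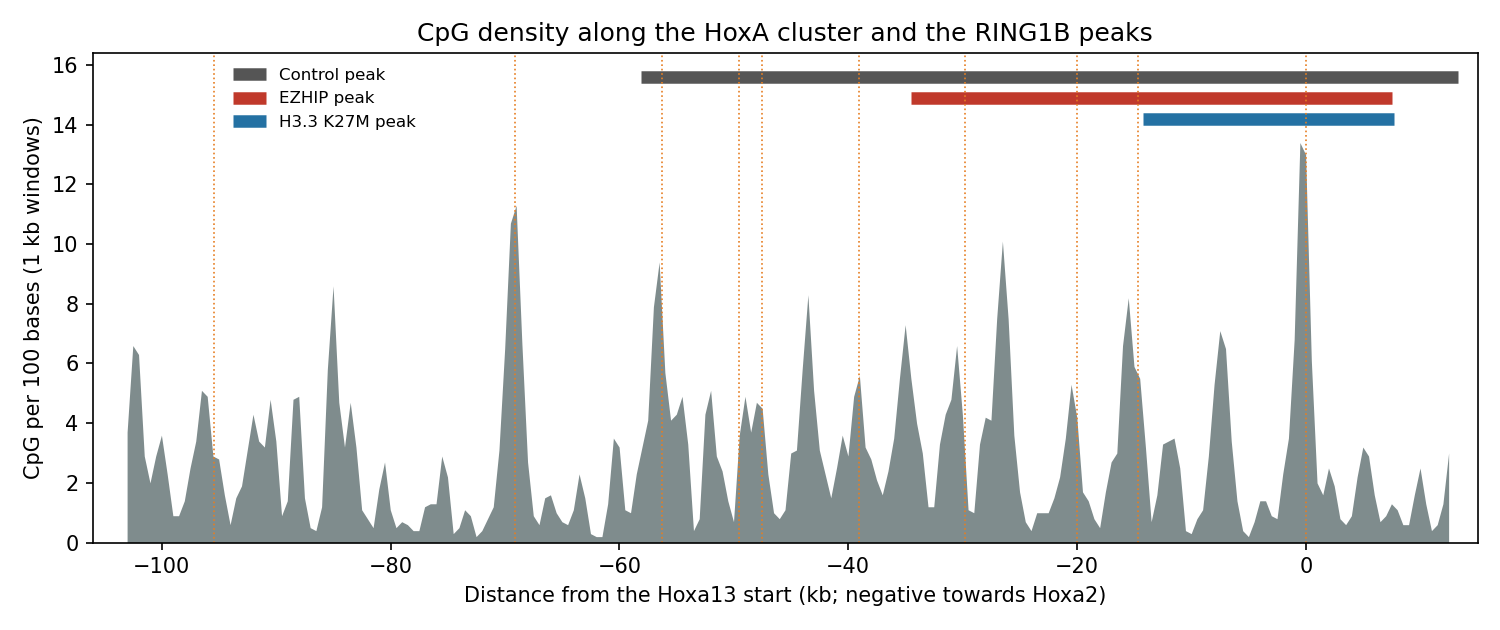
CpG per 100 bases in windows of 1000 bases (grey) along the HoxA cluster against the distance from the Hoxa13 start in kb, with the extent of the RING1B peak of each list as bars and gene starts as dotted lines. The highest windows lie at Hoxa13 (13.4), inside all peaks, and at Hoxa4 (11.3), outside all of them.

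Over gene starts (250 bases before to 50 after), CpG counts ran from 2 at Hoxa2 to 47 at Hoxa4. At Hoxa13 the count was 45, and 98.4% of all 37252 promoters held fewer. At Hoxa4, 98.8% held fewer, and at Hoxa2, 18.1%. The letters GCGC were found at the starts of 6 of the 10 genes, namely Hoxa4, Hoxa5, Hoxa6, Hoxa10, Hoxa11 and Hoxa13, and in 43.1% of all promoters. Over the whole HoxA stretch they occurred at 291 per 100 kb, against 40.2 per 100 kb of chromosome 6. A pattern of the CTCF core (CCA, then AG, then GGCA, with 2 free bases between) was searched on both strands. CTCF is a DNA-binding protein known to mark boundaries within Hox clusters. It matched at 1 place in the whole stretch, at chr6:52171807-52171819 on the minus strand, 46 bases inside the Hoxa7 start. The match, in capitals, reads as follows.
Hoxa7: agaaaattCCAGGAGATGGCAgtgtggct
This place was covered in the control alone and lay 4594 bases from the EZHIP edge and 24794 bases from the H3.3 K27M edge. Such matches occur at 2.71 per 100 kb of chromosome 6 and at 0.929% of all promoters. A stricter pattern with further fixed bases had 0 matches in the stretch. A match of letters is not a measured binding site, and none of the 3 edges lay at a match. Both patterns ask for an A after GGC, so sites with another base there were not searched. Whether an edge lies at a CTCF site was not tested.

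Repeated sequence was rare throughout the cluster. Of words of 32 bases sampled every 50 bases, 1.65% occurred more than once in the genome in the uncovered stretch, 0.849% in the control stretch on the side of Hoxa2, 0.248% in the control and EZHIP stretch and 1.61% in the stretch covered in all 3 lists.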

How the data were processed

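RING1B ChIP-Seq gave 1 library per group. As the study's methods state, its authors mapped reads to mm9 and a spike-in genome with bowtie1 (Bowtie 1.0.0 in the submitters' processing notes) and called broad peaks with MOSAiCS-HMM, setting the FDR to 0.1, maxgap to 10000, minsize to 1000 and thres to 20. Despite that minsize, both lists of transduced cells hold peaks of 399 bases, whereas the narrowest control peak has 1199, so the settings may have differed between lists. Each list deposited by the authors holds 3 columns (chromosome, start, end) with no signal or other score, so the depth is unknown. Positions are given 1-based.

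Genes were taken from GENCODE vM1 on NCBIM37. Every peak ended within its chromosome there. For Hoxa3, the gene model with the longest coding sequence was used. Overlaps were computed in Python 3.11.15 with numpy 2.4.6 and pandas 2.3.3 and plotted with matplotlib 3.10.9. The overlap step was checked on constructed examples with known answers. CpG-island-like sequence was windows of 500 bases, moved by 100, with a G+C content of 55% or more and a CpG observed/expected value of 0.65 or more. The reference is not soft-masked, so repeated words of 32 bases stood in for the planned share of masked bases. The rule for named genes covered the 10 members, their neighbours, noncoding genes of the interval, and lists of other Hox and TALE genes, with up to 3 genes of a list to be named by covered length. Ties at full cover left no such order, so genes of those lists were named after their values were seen, for the same paralog numbers as members. An item of that rule is not reported here. Members and lists were chosen with earlier results of these data known. With 1 library per group, no p-value was computed.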

Additional observations from a re-analysis of the deposited data

How the results depend on the processing

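The 11 values on gene counts and covered length were recomputed under 16 settings, 11 planned and 5 chosen after the data were seen, which gave 86 values. Of these, 83 stayed within 1.5 times the reported value, 3 moved further and 0 changed direction. All 3 concern the H3.3 K27M list, whose counts are small. Its genes with a peak numbered 1 with the gene body alone and 1 when at least 50% of the body had to be covered, since Hoxa11 is then not counted. Its genes with the start inside the peak numbered 2 when peaks were lengthened by 1000 bases at both ends, which takes in Hoxa11, and its genes with a peak numbered 3, which takes in Hoxa10. With start codons in place of gene starts, 7 genes lay inside the control peak (Hoxa3 not counted), 3 inside the EZHIP peak (Hoxa9 not counted) and 1 inside the H3.3 K27M peak. The EZHIP count was 4 without the window, with a window of 2000 bases, with 50% of the body and with shortened peaks, since Hoxa7 is then not counted. The control count was 7 with the coding span, which leaves out Hoxa3 under the gene model used but not under the second model, and with 50% of the body. Relative to the control, covered length ran from 0.588 to 0.626 for EZHIP and from 0.246 to 0.323 for H3.3 K27M over these settings. Minimum widths and merging within 10000 bases moved no value here, because each list has 1 wide peak at the cluster. No paired analysis was possible because each group has 1 library. The lists hold no score, so no stricter threshold of the authors could be applied.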
